A study of Mus musculus with 9 samples.

Results

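Adenines that lie in uninterrupted runs of 3 or more A were examined in the 5′ untranslated regions of mouse embryonic stem cell transcripts probed with dimethyl sulfate (DMS). An A belonged to a run when it stood among at least 3 A at consecutive positions of the same amplicon. A run cut by the end of an amplicon was taken at the length read. By this rule, which uses the sequence only, 1354 of the 6840 A values in the deposited table were members (19.8%), out of 32967 nucleotide values in all. They came from 381 runs as read, which are 323 distinct runs, because 218 of the 1136 distinct positions were read in 2 overlapping amplicons. Members occurred in 132 of 161 amplicons and 63 of 69 transcripts. The comparison set was the other 5486 A values, which are single A or A pairs.

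All samples were total RNA of E14 embryonic stem cells (genotype E14TG2a), and each of the 3 groups held 3 independent samples. In the group called ATP depleted, cells were kept for 10 min in glucose-free medium containing 10 mM 2-deoxyglucose and 10 mM sodium azide, and both agents stayed in the later media. Untreated cells went through the same steps without either agent. Both groups of cells were then given DMS at 1.6%, in medium buffered with 250 mM bicine, for 6 min and at 37 °C. In the group called In vitro refolded the RNA was probed outside the cell, and its probing conditions are not stated in the sources used here. Amplicons of 250 nt were sequenced.

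DMS methylates adenine and cytosine on the face that forms Watson-Crick pairs, so paired bases are shielded, and in mutational profiling the methylated bases are read as changes in the cDNA. In these data, away from runs of A, the median C had 4463 ± 323 CPM (the unit explained below), the median T, which stands for U, 3881 ± 482, and the median G 807 ± 52.5 (SD, n = 9 samples). Consecutive A in single-stranded RNA tend to stack on one another, and long stretches bind poly(A)-binding protein. Identical neighbouring bases also make the position of a deletion in a read ambiguous, because removing any of them leaves the same sequence.

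The unit used below is CPM, counts per 1000000 counts within an amplicon and sample. The whole-number counts behind the deposited log2 values were recovered, and they came to between 5743965 and 12616275 per sample. The median member was backed by 165 to 527 counts, depending on the sample, and members held 16.6% to 18.5% of all counts on A. No member had a read coverage or a sample without DMS beside it in the data used here. A CPM value therefore shows how the signal of an amplicon is shared among its positions, not a modification rate.

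Most runs were short. As read, 270 runs had 3 A, 74 had 4, 18 had 5, 7 had 6, 6 had 7, 1 had 8, 3 had 10 and 2 had 18. The 10 distinct runs of 7 A or more are printed here because the results on position turn on them. They run 5′ to 3′ as in the deposited table, with T for U, and capitals mark the run. Positions are counted from 1 at the start of the transcript.
Cnot3 217 to 234: aagaggAAAAAAAAAAAAAAAAAAggcggc
Nfe2l1 205 to 214: agggggggAAAAAAAAAAggaggaaa
Ddx6 142 to 151: agggctttAAAAAAAAAAgttgattc
D830031N03Rik 1159 to 1166: tggcggggAAAAAAAActtttgaa
Pafah1b1 434 to 440: ttcacttgAAAAAAAgaatcatt
Ube4b 336 to 342: tgcgggagAAAAAAAcgcagctg
Tulp4 654 to 660: taaaggagAAAAAAAcaaa
Ddx17 315 to 321: ttgagtggAAAAAAAcctcattt
Jmjd1c 447 to 453: gctcgattAAAAAAAtactgctc
Tle4 516 to 522: agacaaatAAAAAAAgtttggag

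These runs sit in transcripts of varied function. Cnot3 encodes a subunit of the CCR4-NOT deadenylase, Ddx6 and Ddx17 encode DEAD-box RNA helicases, Nfe2l1 encodes a transcription factor of proteasome genes, and Pafah1b1 encodes the dynein regulator Lis1. Ube4b encodes a ubiquitin ligase, Jmjd1c a Jumonji-domain protein, and Tle4 a Groucho-family corepressor. In 7 of the 10 printed runs, and in 194 of the 373 runs that did not touch the end of a read, the base right before the first A was G. The base right after the last A was G in 176, C in 99 and T in 98 of these runs.

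Members carried slightly less signal than other A in every sample. The median member had 7954, 7662 and 8295 CPM in the ATP depleted samples, 8090, 7817 and 8385 CPM in the Untreated samples, and 9065, 8808 and 8753 CPM in the In vitro refolded samples. The median other A had 8749, 8147 and 8894 CPM, 8756, 8254 and 9164 CPM, and 9527, 9220 and 9576 CPM in the same order. On the scale log2(CPM + 3196.78), whose pseudocount is 0.5 times the median A and C value, the difference of members minus other A was -0.074 ± 0.020 (SD, n = 9). This equals 95% of the other A level, pseudocount included, and all 9 samples lay below 0. An exact two-sided sign-flip permutation test over the 9 samples gave p = 0.00391, the smallest it can give, and 0.00547 after Benjamini-Hochberg adjustment over 7 such tests. Such a p measures only the spread between samples that all read the same positions.

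The offset was smaller when each member was set against the other A of its own amplicon, at -0.027 ± 0.011 (SD, n = 9; exact sign-flip permutation p = 0.00391, adjusted 0.00547). All 9 samples again lay below 0. The call ended when runs of 6 or more A were left out, where the difference was -0.002 (p = 0.648), and when only single A served as the reference, where it was -0.010 (p = 0.156); both p-values are from the exact sign-flip permutation test. The runs of 6 or more A number 19.

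Signal was lower in runs of 4 or more A than in shorter ones. In Untreated cells the median was 8773 ± 495 CPM for single A, 8650 ± 392 for A pairs, 8569 ± 397 for runs of 3, 7819 ± 290.3 for runs of 4, 6570 ± 283 for runs of 5, 7590 ± 150.0 for runs of 6 or 7, and 3441 ± 537 for runs of 8 to 18 (SD, n = 3 samples each). Neighbouring classes up to a length of 3 differed by less than their SD, and runs of 6 or 7 stood above runs of 5. ATP depleted samples had 8387 ± 407 CPM in runs of 3, 7504 ± 229 in runs of 4 and 3573 ± 406 in runs of 8 to 18. In vitro refolded samples had 9554 ± 217, 8365 ± 311 and 4295 ± 53.1 CPM in the same classes. The longest class therefore held the lowest median in each group, but it rests on few transcripts. Of its 74 values, 36 came from the 1 distinct run of 18 A, in Cnot3, read in 2 amplicons. The others came from 2 distinct runs of 10 A and 1 of 8 A, and the SD over samples does not measure the spread between runs. Members in runs of 4 or more minus members in runs of 3 gave -0.188 ± 0.028 on the log2 scale (SD, n = 9), below 0 in 9 of 9 samples (exact sign-flip permutation p = 0.00391, adjusted 0.00547).

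**Figure D1:**
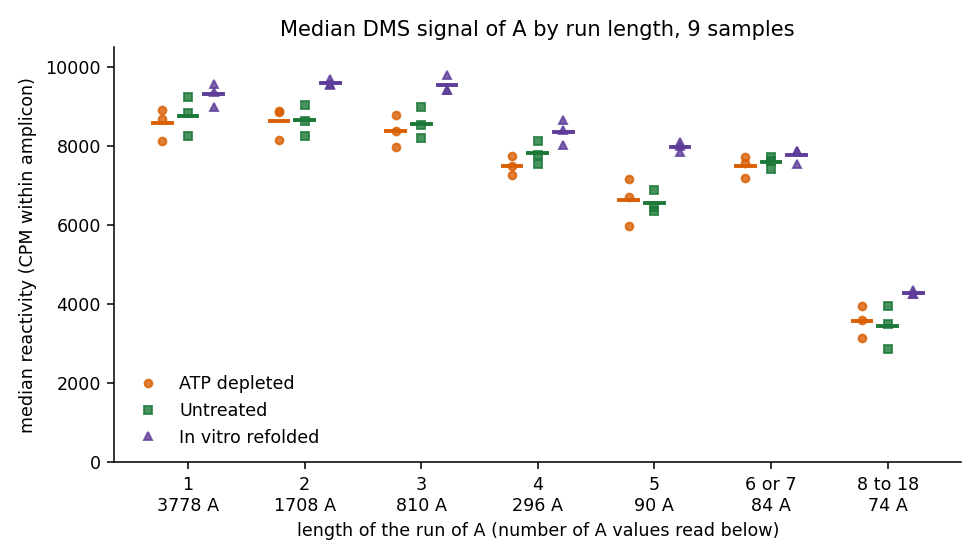
Median reactivity (vertical axis, CPM within amplicon) of A by length of the run they lie in (horizontal axis), for the 3 groups. Points are single samples and bars are group means of 3 samples. Runs of 1, 2 and 3 A lie at similar heights. The 74 values in runs of 8 to 18 A, from few distinct runs, have medians between 2875 and 4355 CPM in the 9 samples.

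Run by run, the spread was wide. Set against the other A of its amplicon, the median of the 381 runs was 0.00 on the log2 scale, with the central 90% between -0.71 and 0.40. Of the runs of 3 A, 40.7% lay below their amplicon's other A, against 64.9% of runs of 4, 83.3% of runs of 5, 84.6% of runs of 6 or 7, and 6 of 6 runs of 8 to 18. Of all runs, 94 lay below in all 9 samples and 74 lay above in all 9. Runs are counted here as read, so a run read in 2 amplicons counts for each reading. In the longest class, the 3 readings of 10 A are of 2 distinct runs and the 2 readings of 18 A are of 1.

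Members were predicted to be unpaired more often than other A. With ViennaRNA folding each stretch read, the median member was unpaired with probability 0.91 and the median other A with 0.671, and 72.9% of members against 58.4% of other A reached 0.5. The median member lay in an amplicon with a GC content of 48.6%, and the median other A in one with 54.2%. Among A with an unpaired probability of 0.5 or more, the 987 members had a median of 8614 ± 618 CPM and the 3206 other A one of 9852 ± 676 CPM (SD, n = 9 samples). On the log2 scale that is a difference of -0.144 ± 0.021, below 0 in 9 of 9 samples. Among A with a lower probability the difference was -0.026 ± 0.030, below 0 in 8 of 9 samples. No test was made on these classes, and the fold predictions know nothing of the cell.

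Within a run the signal depended on position. Over all complete runs, the median first A had 8682 ± 343 CPM in ATP depleted, 8998 ± 110.1 in Untreated and 9783 ± 292 in In vitro refolded samples. The median interior A had 7368 ± 368, 7437 ± 232 and 8324 ± 231 CPM, and the median last A 8361 ± 344, 8563 ± 517 and 9059 ± 359 CPM (SD, n = 3 each). Compared within runs, interior A minus the mean of both ends was -0.091 ± 0.024 on the log2 scale (SD, n = 9), below 0 in 9 of 9 samples. The last A minus the first was -0.068 ± 0.042, also below 0 in 9 of 9 samples. For both, the exact sign-flip permutation test gave p = 0.00391, adjusted 0.00547.

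The ends of a run were set against the ends of an A pair, which have the same kind of neighbours, and no difference passed the test. The median first A of a pair had 8791 ± 395, 8812 ± 378 and 9999 ± 103 CPM in ATP depleted, Untreated and In vitro refolded samples. First A of runs minus first A of pairs was -0.005 ± 0.033 on the log2 scale, with samples between -0.048 and 0.058 (exact sign-flip permutation p = 0.664, adjusted 0.775). For the last A the difference was -0.002 ± 0.037, between -0.071 and 0.037 (p = 0.906, adjusted 0.906, same permutation test). Under other settings, for the first A, a difference of -0.019 in means, and one of -0.032 in amplicons with 5000 or more counts in every sample, reached p = 0.00391 in the exact sign-flip permutation test.

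Runs of 4 A were low at their second position, which was noticed in the data and is described without a test. In these 74 runs the median second A had 4781, 5341 and 5201 CPM in the ATP depleted samples, 4927, 5404 and 5190 in the Untreated samples, and 5540, 6214 and 5701 in the In vitro refolded samples. The median first A had between 8788 and 10496 CPM, and no sample of the second position reached the range of any other position. Within runs, the second A differed from the first by -0.535 ± 0.053, from the third by -0.360 ± 0.034 and from the fourth by -0.419 ± 0.059 on the log2 scale (SD, n = 9), below 0 in all 9 samples for each. By the mean over samples the second A was the lowest of its run in 53 of 74 runs (71.6%), and the highest in 1.

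Other lengths had other shapes. In runs of 3 the second A was lowest in 93, the third A in 92 and the first A in 77 of 262 runs. There the median second A had 8207 ± 363, 8350 ± 412 and 9780 ± 306 CPM in ATP depleted, Untreated and In vitro refolded samples, while the third A had 8402 ± 429, 8510 ± 521 and 9003 ± 326. In the 18 runs of 5 the last A was the highest of its run in 10, and it exceeded the first by 0.398 ± 0.104 on the log2 scale, above 0 in 9 of 9 samples. In the 13 runs of 6 or 7, the second A again had the lowest median of the positions compared, at 3297 ± 165, 3301 ± 399 and 3580 ± 472 CPM. The first A of these runs had 9336 ± 335, 9157 ± 1352 and 9620 ± 1799 CPM.

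A low second position was not limited to A. In runs of exactly 3 C the second C minus the first was -0.298 ± 0.031, and in runs of 4 C it was -0.326 ± 0.052 (SD, n = 9), below 0 in all 9 samples. The 388 runs of 3 C had a median of 4456 CPM at the first and 2696 CPM at the second position. In the runs of 3 A the same contrast was -0.058 ± 0.033.

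**Figure D2:**
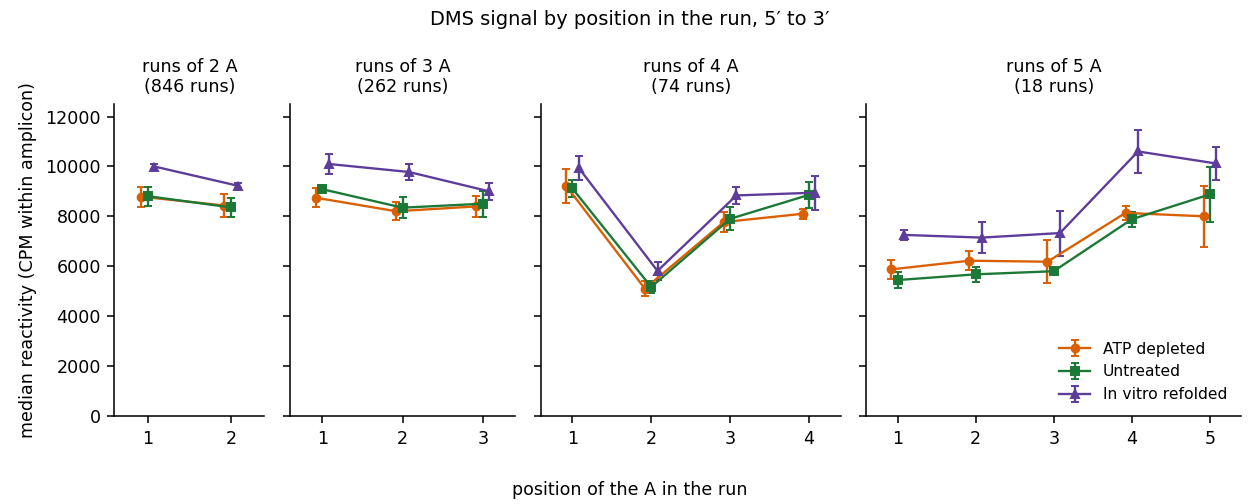
Median reactivity (vertical axis, CPM within amplicon) at each position of runs of 2, 3, 4 and 5 A (horizontal axis, 5′ to 3′). Points are means of 3 samples and bars are SD. In the 74 runs of 4 A the second position dips to between 5108 and 5818 CPM in the group means, and in the 18 runs of 5 the last positions are high.

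The longest run, the 18 A of Cnot3, showed a steep fall from its 5′ end that was read alike in both amplicons. In the amplicon from 103 to 353 the first A had 34053 CPM after ATP depletion, 30047 in Untreated cells and 33459 in vitro. The fifth A had 3266, 3789 and 3747 CPM, and the tenth had 102, 101 and 127 CPM. The signal returned at the 3′ end, where the seventeenth A had 7943, 8656 and 14134 CPM. In the amplicon from 160 to 410 the first A had 28906, 26356 and 32491 CPM, the eleventh 134, 138 and 436 CPM, and the seventeenth 7833, 6789 and 13828 CPM. At the lowest positions single samples had 0 to 5 counts, so the exact place of the minimum is uncertain.

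Both 10 A runs dipped in their middle. In the Nfe2l1 run, read from amplicon 149 to 399 with 28 counts or more at every A, the signal fell from 11458, 11225 and 12057 CPM at the first A to 429.7, 257 and 449.8 at the sixth. It was 7399, 7797 and 9054 CPM at the tenth. The other amplicon of this run, from 0 to 250, had its lowest group means at the fifth A in each group, on 5 counts or fewer per sample. In the Ddx6 run the first A had 0 counts in all 9 samples, and this was the 1 member left out of the test. Its second A had 16807, 16490 and 17501 CPM, and the sixth 2377, 2647 and 3052. The 8 A of D830031N03Rik had their lowest mean over 9 samples at the third A, 1884 CPM, and their highest at the fifth, 10023 CPM.

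**Figure D3:**
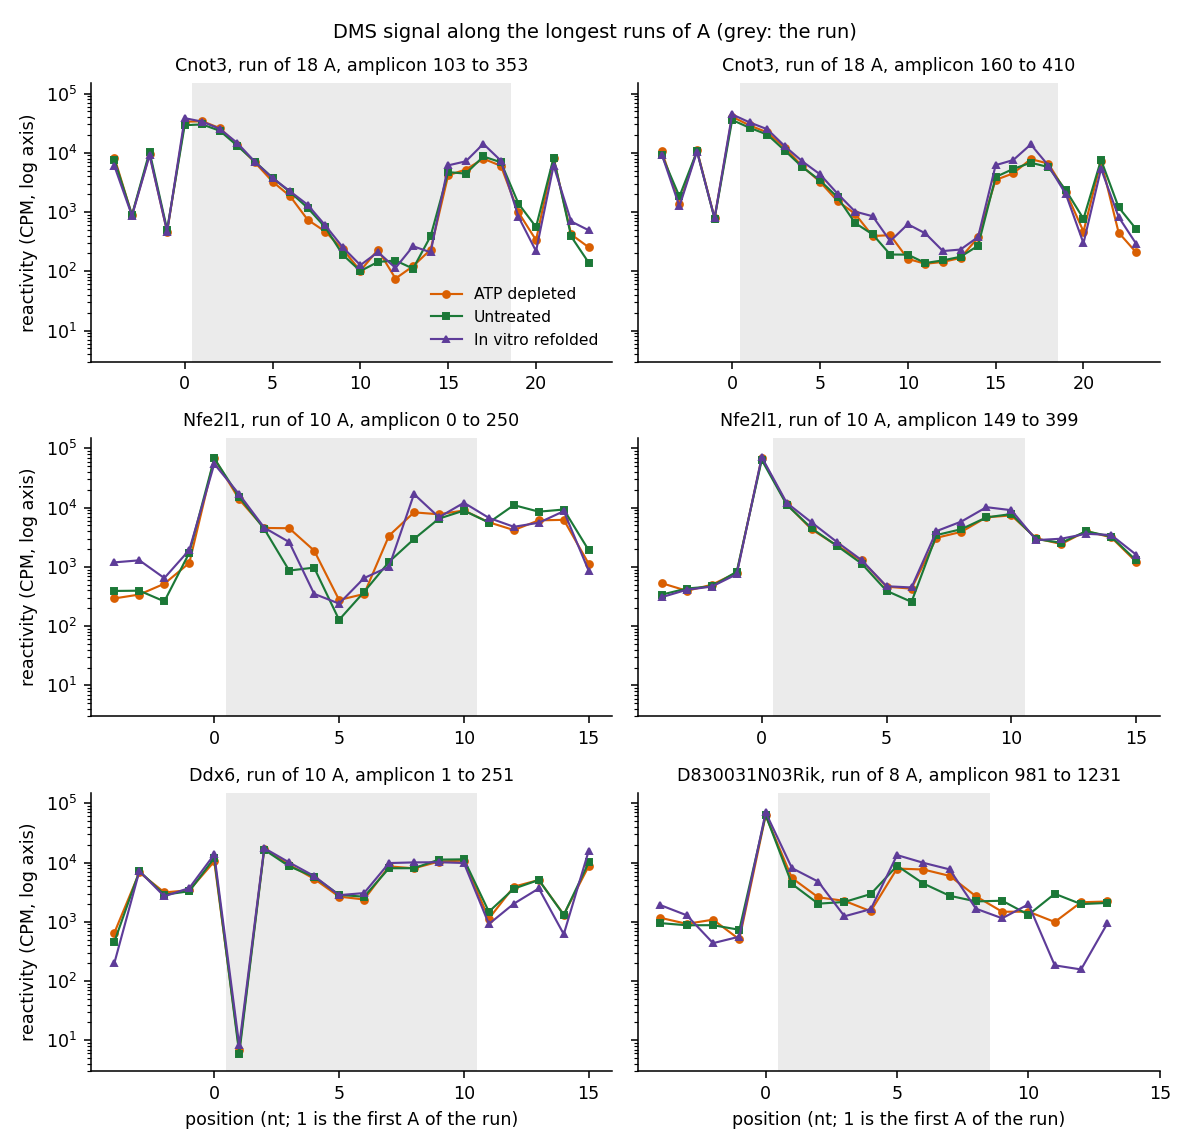
Reactivity (vertical axis, CPM, log axis) along the 4 longest runs of A, with position 1 at the first A and the run shaded (horizontal axis, nt). Points are means of 3 samples per group, and Cnot3 and Nfe2l1 were each read in 2 amplicons. In the first panel the 18 A fall from 32520 CPM at the first A to 110.2 CPM at the tenth, as means of 9 samples, and rise again at the last 4 A. The base before the run stands highest in all groups in each panel other than the first and that of Ddx6. In the first panel it stands highest in vitro and slightly below the first A in both groups of cells. The first A of Ddx6 had 0 counts and is drawn at the value of the 0.5 count added to every position.

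The base right before a long run carried a strong signal, although it is not a member. Ahead of the Nfe2l1 run the G had 68579, 63855 and 71164 CPM in the amplicon from 149 to 399, on 9882 counts or more in each sample. Ahead of the D830031N03Rik run the G had 62163, 63228 and 70244 CPM. Ahead of the Cnot3 run the G had 33363, 29220 and 38393 CPM in one amplicon and 40546, 35738 and 44377 in the other. The Ddx6 run, which follows a T, had less there. That T had 10410, 11930 and 13701 CPM, below the second A of the run in each group.

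The signal of a preceding G grew with the length of the run. Its median over sites, given as the mean of 9 samples, was 944 ± 78.8 CPM before a single A, 1417 ± 172 before a pair and 1491 ± 218 before 3 A. It was 1935 ± 198 before 4, 4500 ± 1564 before 5, 41195 ± 8160 before 6 or 7, and 58426 ± 11034 before 8 to 18 (SD, n = 9). The last of these classes held 5 values as read, since Nfe2l1 and Cnot3 each gave readings from both of their overlapping amplicons. A preceding T had 5102 ± 598 CPM before a single A, 5861 ± 810.2 before 3 and 28103 ± 3959 before 6 or 7, and a preceding C had 5289 ± 248, 6866 ± 268 and 18054 ± 5305 CPM. For G before 6 or 7 A, the ATP depleted, Untreated and In vitro refolded samples had 38689 ± 6091, 34910 ± 2674 and 49986 ± 6121 CPM (SD, n = 3).

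The base right after the run showed no such step. A following G had 959.6 ± 81.9 CPM after a single A, 1249 ± 193 after 3 A and 1374 ± 411 after 6 or 7. A G before 6 or 7 T (3 readings) had 18225 ± 2016 CPM, and a G before 6 or 7 C (5 readings) had 1462 ± 784 CPM. Averaged per A, runs of 6 or 7 held 7733 ± 521 CPM and runs of 8 to 18 held 5543 ± 884, against 8887 ± 480.5 for single A. With the preceding base added to the sum, the values per A became 12260 ± 991, 9901 ± 809 and 12732 ± 568 CPM. In the lengths between, from 2 to 5 A, they were 11413 ± 692, 10614 ± 868, 9206 ± 543 and 9154 ± 839 CPM, below those of single A. The added base is divided by the number of A in the run, so it weighs most for a single A. These sums therefore do not compare like with like between lengths. The table does not part mismatches from deletions, and how the aligner placed a deletion within a run is not given in the sources used here. The part of that placing in the values by position, and in those of the preceding base, was not tested. These sites were chosen after their values were seen, and no test was made on them.

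**Figure D4:**
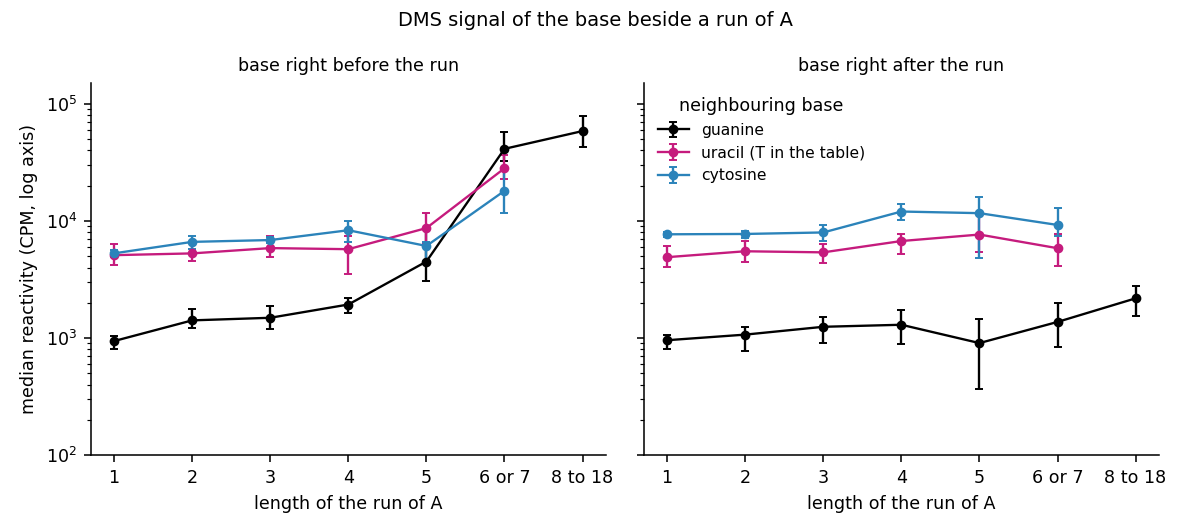
Median reactivity (vertical axis, CPM, log axis) of the base right before (left) and right after (right) runs of A of each length (horizontal axis). Points are means of 9 samples and bars span the lowest to the highest sample. Before runs of 6 or 7 A a guanine has 41195 CPM, against 944 CPM before a single A, and the panel of following bases has no such step.

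Single runs ranged from far above to far below the other A of their amplicon. The runs with the highest and the lowest mean were named by rule, as a description without a test, and 5 of these 6 are printed with the run in capitals to show how different sequence settings these are. The sixth, Sema6a 501 to 503, is given by its values alone.
Nfe2l1 220 to 222: aaaggaggAAAg
Tek 294 to 296: agttgttgAAAgcttccca
Ints6 316 to 318: cgggggagAAActccccat
Ddx17 421 to 424: cacaaagcAAAAtaggtgtg
Ddx17 602 to 605: aacagagtAAAAgtgatttg

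Sema6a, which encodes a transmembrane semaphorin, had the highest run, 0.97 above its amplicon's other A on the log2 scale. It ranged from 0.33 to 2.56 between samples, on 240 to 2168 counts per sample. Its 3 A averaged 15237 ± 5012 CPM after ATP depletion, 15765 ± 1974 in Untreated cells and 25805 ± 8075 in vitro (SD, n = 3). The short Nfe2l1 run, which starts 6 positions after the run of 10, stood at 0.75 in the amplicon from 0 to 250, with 13484 ± 4900, 18521 ± 5455 and 14732 ± 3332 CPM. That reading rests on 48 to 796 counts per sample and ranged from -0.01 to 1.43 between samples. In the amplicon from 149 to 399, on 4283 to 6241 counts, the same run stood at 0.11, between 0.07 and 0.20, with 9341 ± 281, 9337 ± 530.4 and 10307 ± 558 CPM, so its high rank rests on the shallower reading. In Tek, the gene of an angiopoietin receptor, the run stood at 0.71, between 0.41 and 0.99, with 13102 ± 2433, 14484 ± 839.7 and 19391 ± 2452 CPM.

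The lowest run lay in Ints6, which encodes a subunit of the Integrator complex, at -1.61. Its second A had 2120, 2868 and 2561 CPM in the ATP depleted samples, 3601, 3458 and 2836 in the Untreated samples, and 641, 555 and 726 in the In vitro refolded samples. At this A the in vitro samples lay below all samples from cells, and the fall passed the test in both comparisons. Against Untreated it was -0.76 (limma adjusted p = 0.00248) and against ATP depleted -0.57 (adjusted p = 0.00734). In the same order the first A changed by -0.63 and -0.45 (limma adjusted p = 0.0129 and 0.0467). The third A did not fall in this way, at -0.09 and 0.01 (limma adjusted p = 0.824 and 0.977). The median other A of the amplicon had 12901 CPM. The Ddx17 run from 421 to 424 stood at -1.16 with 1882 ± 71.4, 2246 ± 314 and 2246 ± 187 CPM, and none of its 4 A passed a test between groups. It too was low at the second A, which had between 697 and 1097 CPM in the 9 samples.

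Between groups, the level of members was first compared as a whole. The median member stood higher in vitro than in Untreated cells by 0.096 on the log2 scale and higher than after ATP depletion by 0.113, and in both cases the lowest in vitro sample lay above the highest sample from cells. With 3 samples against 3 the exact two-sided permutation test cannot give less than 0.1, so 0.05 cannot be reached, and it gave 0.1 for each (adjusted 0.233 over 21 such tests). ATP depleted minus Untreated was -0.016 (exact permutation p = 0.7, adjusted 0.774), and the samples overlapped. Other A shifted by 0.085 and 0.10 in vitro. When each amplicon was scaled to its mean over A and C, the in vitro difference in members became 0.001 against Untreated and -0.017 against ATP depleted, and ATP depleted minus Untreated became 0.018, so that scaling turned the direction against ATP depleted and between the groups of cells, and left almost no difference against Untreated.

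No difference between groups was detectable in the gap between members and other A. The gap was -0.079 ± 0.019 after ATP depletion, -0.078 ± 0.019 in Untreated cells and -0.066 ± 0.026 in vitro (SD, n = 3), and the exact permutation p between pairs of groups lay between 0.5 and 1 (adjusted 0.741 to 1). The gap by length was -0.177 ± 0.020, -0.177 ± 0.037 and -0.208 ± 0.019 in the same order. In vitro did not overlap with ATP depleted there (exact permutation p = 0.1, adjusted 0.233) but did with Untreated (p = 0.3, adjusted 0.485). The last A minus the first was -0.111 ± 0.031 in vitro, -0.052 ± 0.028 after ATP depletion and -0.040 ± 0.030 in Untreated cells. In vitro did not overlap with Untreated (exact permutation p = 0.1, adjusted 0.233) but did with ATP depleted (p = 0.2, adjusted 0.42). Interior minus end A was -0.068 ± 0.025 in vitro, -0.093 ± 0.006 after ATP depletion and -0.113 ± 0.010 in Untreated cells, without overlap between any pair of groups (exact permutation p = 0.1 for each, adjusted 0.233).

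Single members were then tested with limma on all 9 samples, with p adjusted over all 16178 tested A and C. ATP depletion against Untreated gave 0 calls among 1353 members, as it gave 0 among all tested nucleotides, a background of 0%. At an unadjusted p under 0.05 there were 33 members (2.44%), against 3.93% of all tested nucleotides. The largest fall, not called, was at A658 in the 7 A of Tulp4, which encodes a Tubby-like protein, at -0.91 (SE 0.27, limma adjusted p = 1).

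In vitro refolded against Untreated gave 133 called members, 9.83% of 1353, against a background of 16.3% of all tested A and C and 15% of other A. Of these, 95 were higher in vitro and 38 lower, where the background was 8.08% higher and 8.18% lower. Called other A split into 586 higher and 239 lower. Against ATP depleted there were 137 called members (10.1%), 101 higher and 36 lower, beside backgrounds of 14.9% in either direction, 8.31% higher and 6.56% lower, and 14.1% of other A, which split into 588 higher and 187 lower. These comparisons share the in vitro samples. With each amplicon scaled to its mean over A and C, 99 members were called against Untreated (7.32%, all tested 15.9%), 47 higher and 52 lower. Against ATP depleted, 102 were called (7.54%, all tested 14.3%), 46 higher and 56 lower. The excess of higher calls among members therefore depended on the scaling. The split into higher and lower was not counted over all tested A and C under that scaling. Every called member had groups without overlap, as did 379 of all 1353 members (28%) against Untreated. That share was not counted over all tested A and C, so it has no background beside it and is not a result about members.

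The number of calls was sensitive to the samples, among members and among all tested A and C. Against Untreated, members called fell to 79, 59 and 62 without Untreated replicate 1, 2 and 3 (5.84%, 4.36% and 4.58%), where all calls fell from 2631 to 1764, 1394 and 1512 (10.9%, 8.62% and 9.35%). With the 6 compared samples fitted alone, 55 members (4.07%) and 1332 of all (8.23%) were called. Against ATP depleted, members called fell to 44, 39 and 67 without ATP depleted replicate 1, 2 and 3 (3.25%, 2.88% and 4.95%), where all calls fell from 2406 to 1371, 1007 and 1245 (8.47%, 6.22% and 7.7%). The 6 samples alone gave 76 members (5.62%) and 1604 of all (9.91%). By length, the share called against Untreated was 10.9% in runs of 3, 9.46% in runs of 4, 10% in runs of 5 and 5.1% in runs of 6 or more. By position it was 7.89% of first, 9.8% of interior and 11.8% of last A. No test was made of the differences between these shares.

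Most runs that held a called A held only 1. In vitro against Untreated, 99 runs held at least 1 called A and 25 held 2 or more, of which 17 had only higher, 7 only lower and 1 both. In 6 runs every A was called, and in 9 runs against ATP depleted. These runs were picked out after their values were seen. Runs of other bases were not counted in this way, so these numbers of runs have no background. They include Tulp4 92 to 94, where the run mean was 1873 CPM after ATP depletion, 2681 in Untreated cells and 8212 in vitro. Ext1, which encodes a glycosyltransferase of heparan sulfate synthesis, had runs moving both ways in separate amplicons. Ext1 265 to 267 had 6986, 7717 and 2995 CPM and Ext1 680 to 682 had 9043, 9197 and 13703 CPM.

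The largest rises in vitro were in 1 run of 4 A in Ddx17, from 602 to 605, which lay among the lowest runs over the 9 samples. Its first A had 387, 301 and 411 CPM in the ATP depleted samples, 687, 563 and 906 in the Untreated samples, and 7879, 8728 and 7419 in the In vitro refolded samples. The in vitro values lay far above all 6 from cells. The rise in vitro was 1.52 against Untreated (SE 0.09, limma adjusted p = 0.000194) and 1.65 against ATP depleted (adjusted p = 0.000136) on the log2 scale with pseudocount, which understates the fold change of such weak values. Its second A rose by 1.25 (adjusted p = 0.00155) and 1.36 (adjusted p = 0.00111), and the third A by 1.36 (adjusted p = 0.000646) and 1.32 (adjusted p = 0.000707), all from limma. The fourth A had 3432, 3653 and 4672 CPM in vitro against 1018, 1192 and 1538 in Untreated cells, a rise of 0.68 (limma adjusted p = 0.00688). The counts behind these 4 A ran from 36 to 564 per sample, and the mean of the run was 842 ± 202, 959 ± 142 and 6528 ± 875 CPM.

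**Figure D5:**
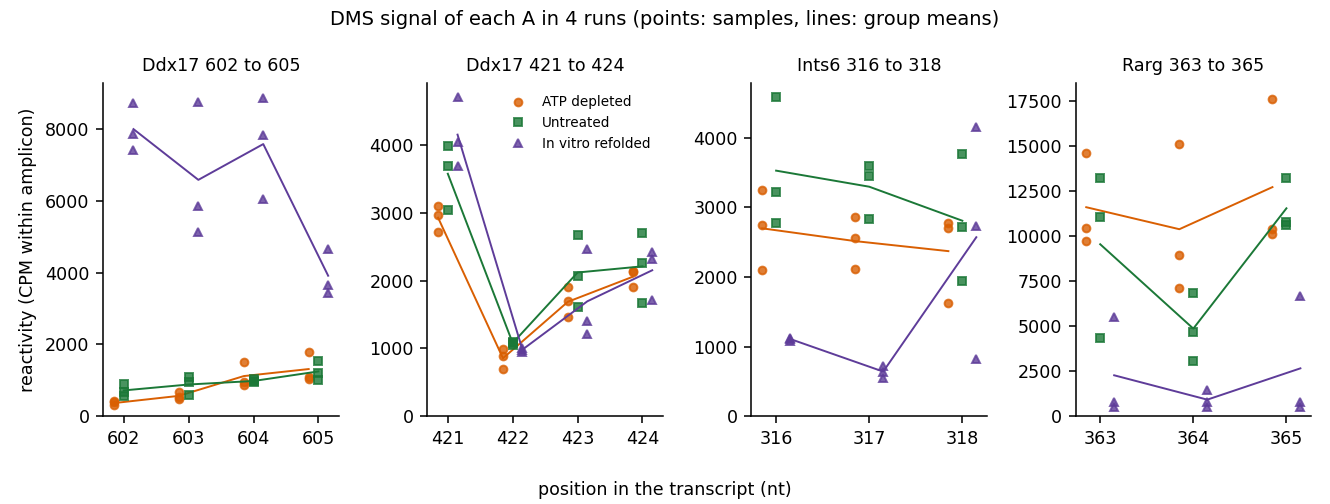
Reactivity (vertical axis, CPM within amplicon, separate scales starting at 0) of each A in 4 runs by position in the transcript (horizontal axis, nt). Points are single samples and lines are means of 3 samples per group. In Ddx17 602 to 605 the 3 in vitro samples lie above all samples from cells at each A, in Ddx17 421 to 424 the groups lie together, and in Rarg the in vitro samples lie lowest at the second A.

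The largest falls in vitro rested on few counts. Rarg encodes the retinoic acid receptor gamma, and its run from 363 to 365 is printed here.
Rarg 363 to 365: atccttggAAAcccactgg

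The second A of the Rarg run, A364, had 15112, 7098 and 8963 CPM in the ATP depleted samples, 4700, 3078 and 6823 in the Untreated samples, and 495, 811 and 1450 in the In vitro refolded samples. It fell by 1.69 against ATP depleted (SE 0.24, limma adjusted p = 0.00418) and fell by 0.95 against Untreated (adjusted p = 0.0325). The third A, A365, had 17655, 10148 and 10390 CPM, 10801, 13216 and 10639 CPM, and 495, 811 and 6672 CPM, and fell by 1.48 against Untreated (SE 0.36, limma adjusted p = 0.028) and fell by 1.56 against ATP depleted (adjusted p = 0.0239). The groups did not overlap at these positions. In vitro refolded replicates 1 and 2 had 0 counts at all 3 A, which allows up to 2971 and 4866 CPM (3 counts each), and replicate 3 had 9, 2 and 11 counts. Some Untreated values of the run lay below the limit of replicate 2, and none lay below that of replicate 1. All ATP depleted values lay above both limits. The first A of a run of 4 in a transcript without a matched symbol fell by 1.71 against Untreated (SE 0.48, limma adjusted p = 0.0465), on 0 to 252 counts. None of the nucleotides named here for a change was read in another amplicon.

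By gene, Nfe2l1 held the most members, 84 values in 4 amplicons, followed by D830031N03Rik with 64 and Ext1 with 58. In Nfe2l1 the median member had 8199 CPM and the median other A 9036 CPM over the 9 samples, a difference of -0.10 on the log2 scale that ranged from -0.14 to -0.06. D830031N03Rik had 7802 and 8816 CPM (-0.13, from -0.22 to 0.03), and Ext1 had 9055 and 9031 CPM (-0.00, from -0.09 to 0.14). The 218 positions read in 2 amplicons give a measure of the agreement of readings. Across them, which are not independent replicates, the Pearson correlation of both readings was between 0.664 and 0.930 in a sample, and the median absolute difference was 0.164 on the log2 scale.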

How the data were processed

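The authors' deposited table holds log2 values, 1 per nucleotide and sample, for 9 samples. The submitters' processing notes name bcl2fastq, Bowtie2 and limma without version or role, and neither the genome build nor the way mutations were counted is stated in the sources used here. From the values themselves, each log2 value is that of a whole count plus 0.5, scaled to CPM within an amplicon. All 1449 libraries (an amplicon in a sample) gave whole counts at a tolerance of 0.0001 for 100% of values, and they held 96 to 624295 counts. Since the cDNA was amplified, counting error understates the true error. The plan had assumed linear values, so 2 was raised to each deposited value before the planned tests.

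Runs were found within each amplicon, from the position and base in each row. Of 16187 A and C values, the 16178 with a count in any sample were tested with limma 3.58.1 in R 4.3.3 on log2(CPM + 3196.78), with a mean per group over all 9 samples and Benjamini-Hochberg adjustment at 0.05. The same fit was tested on simulated data. Summaries over samples used exact two-sided permutation tests in Python 3.11.15, and unpaired probabilities came from ViennaRNA 2.7.2. Symbols came from the RefSeq table of GRCm38.p6 for 68 of 69 transcripts, and no genome coordinates are printed. Runs and nucleotides were named by rule: the longest runs, the largest called changes whose groups did not overlap, the 3 highest and 3 lowest runs relative to their amplicon, and the 3 genes with the most members. Not every result these rules name is reported here. The members and lists were chosen with earlier results of these data known.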

Additional observations from a re-analysis of the deposited data

Results flagged for a closer look

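A G right before a run of 6 or more A had a median of 48603 CPM (mean of 9 samples, 10 readings), against 944 CPM for a G before a single A. This is a signal at a base outside the A and C that were tested. The 10 readings include positions read in both of their overlapping amplicons. A T right before a run of 6 or more A had a median of 25206 CPM (6 readings), against 5102 CPM for a T before a single A. Both were noticed in the data, no test was made on them, and groups of 3 samples were not tested for outlying samples.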

How the results depend on the processing

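Of 304 alternative values, 270 kept their direction and their side of the threshold, or stayed within 1.5 times the main count. The lower level of members held under the 20 alternatives run for it (-0.198 to -0.053), interior against end A under 18, last against first A under 19 and length under 18. Without runs of 6 or more A, chosen after seeing the data, these last gave -0.079, -0.068 and -0.148. The difference within amplicons lost its call with single A as reference (-0.010) and also without runs of 6 or more A (-0.002). The first-A comparison with pairs, not called at -0.005, was called with means (-0.019) and, chosen after seeing the data, in amplicons with 5000 or more counts in every sample (-0.032). With 1 replicate left out it ranged from -0.013 to 0.001, and the last-A comparison from -0.006 to 0.007, while 1 reading per position gave 0.008.

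Differences near 0 between groups changed sign. Member level, ATP depleted minus Untreated, became 0.018 with amplicons scaled to their mean, and -0.037 to 0.004 with 1 replicate left out; in vitro minus ATP depleted became -0.017 with that scaling. Members minus other A, ATP depleted against Untreated, became 0.005 with means, 0.002 without 25 nucleotides at each amplicon end, 0.002 with scaled amplicons, 0.007 at 5000 or more counts, and -0.009 to 0.010 with 1 replicate left out. At 5000 or more counts the in vitro contrasts became -0.001 (Untreated) and -0.007 (ATP depleted). Last minus first A, ATP depleted against Untreated, became 0.001 with means, 0.003 without amplicon ends, 0.027 at 5000 or more counts, and -0.026 to 0.004 with 1 replicate left out. The cause was not tested.

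Called members in vitro against Untreated numbered 88 of 971 (9.06%, all tested 15.4%) among nucleotides at or above the median level. They numbered 55 (4.07%, all 8.23%) in the 6 compared samples alone and 161 of 1004 (16%, all 24.6%) at 5000 or more counts. With 1 replicate left out they numbered 59 (4.36%, all 8.62%) to 143 (10.6%, all 15.4%). Against ATP depleted they numbered 76 (5.62%, all 9.91%) in the 6 samples alone. There, with 1 replicate left out, they numbered 39 (2.88%, all 6.22%) to 143 (10.6%, all 14.7%). The replicate numbers were not taken to pair samples: the correlation of deviations between equal numbers was -0.018 to 0.1. As a hint from the data, each ATP depleted and each Untreated sample correlated best with its own number in the other group, and the member level of ATP depleted minus Untreated was below 0 in all 3 equal-numbered pairs (-0.016 with a replicate block). A replicate block called 98 members in vitro against Untreated (7.24%, all 13.5%), 97 against ATP depleted (7.17%, all 12.3%) and 0 for ATP depleted against Untreated. It gave the same differences of medians (0.096 and 0.113, exact permutation p = 0.25, the smallest 3 pairs allow). It changed no other call. Few counts limit the lowest positions of the longest runs, where signal is weak, and short runs in shallow amplicons.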
